A study of Mus musculus with 4 samples.

Results

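Excitation-contraction coupling is the step by which an electrical signal on the muscle cell surface becomes a release of stored calcium, and it takes place at the triad. The genes described here are 10 genes of that machinery in cultured mouse myoblasts, out of 24445 genes with a value in the deposited table. They were chosen by name, as the genes of the calcium release channels (Ryr1 and Ryr3), the voltage sensor (Cacna1s, Cacnb1 and Cacng1), its adaptor (Stac3), the junctophilins (Jph1 and Jph2) and the calsequestrins (Casq1 and Casq2). The choice was made with earlier results of these data known. All 10 were found in the table. RNA came from 2 groups of C57BL/6 mice with 2 libraries each, wild type (WT) and Tet2 KO, which lack the DNA dioxygenase Tet2 through a constitutive deletion of exon 3 in the whole animal. Satellite cells sorted from hindlimb muscle had been kept in a proliferation medium on collagen for at least 3 days, and the study calls both groups myoblasts. The medium does not tell how many cells had begun to differentiate. The labels gave no age, and the study's methods name young adult males as the default. They do not say whether the libraries came from separate animals.

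At the triad, a fold of the surface membrane called the transverse tubule lies between sacs of the sarcoplasmic reticulum, the calcium store of the muscle cell. Depolarisation moves the voltage sensor in the tubule, which opens the ryanodine receptor in the facing store, and the calcium that flows out starts contraction. Junctophilins hold the membranes together, and calsequestrin buffers calcium inside the store. These genes are transcribed mainly as myoblasts leave the cell cycle and form myotubes, under MyoD, myogenin and MEF2 factors.

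Expression was given as FPKM (fragments per kilobase of transcript, scaled to the number of mapped fragments), with 1 value per gene and group. How the libraries of a group were combined is not stated. The lowest values lay around 1 level in Tet2 KO and around 2 levels in WT, and it is not known whether both libraries entered the Tet2 KO value. FPKM takes transcript length into account, so levels may be set side by side between genes. No value per library was at hand, so no replicate error and no test could be given, and every difference below describes these values per group alone. The log2 ratio is log2((Tet2 KO FPKM + 1) / (WT FPKM + 1)), negative when Tet2 KO was lower, and for weakly expressed genes it is closer to 0 than the ratio of the FPKM values themselves. It was read over the 11692 genes whose FPKM averaged 1 or more. The lowest FPKM values lay at even steps of about 1 fragment, from which about 56000000 fragments in the Tet2 KO group and 58000000 in the WT group were estimated.

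All 10 triad genes had a lower FPKM in Tet2 KO than in WT, by between 1.29-fold for Jph2 and 5.45-fold for Casq1. The summed FPKM of the 10 genes was 294.8 in WT and 159.8 in Tet2 KO, which is 54.2% of the WT level. Of these genes 9 averaged 1 FPKM or more, and Ryr3 did not. The 9 genes were all lower, whereas 51.2% of all 11692 genes were lower by any amount. Their median log2 ratio was -0.77, against -0.0044 over all 11692 genes. The 3 genes Casq1, Casq2 and Cacna1s were lower by at least 2-fold, a size that 1.21% of all genes reached in that direction. None of the 9 was higher by 2-fold, which 2.08% of all genes were. Because the genes were chosen with earlier results of these data known, these shares are no independent comparison. The study had also reported muscle contraction as enriched among its downregulated genes. The study lists RT-qPCR primers for Casq2, so this gene may have been picked on these libraries, and its fall is then not independent of that choice. From 87.4 FPKM downwards, the order of the WT levels was Casq2, Jph2, Cacng1, Stac3, Cacnb1, Cacna1s, Ryr1, Casq1, Jph1 and Ryr3. In Tet2 KO the order was Jph2, Cacng1, Casq2, Stac3, Cacnb1, Ryr1, Cacna1s, Jph1, Casq1 and Ryr3, so Casq2, Cacna1s and Casq1 stood lower in it. Without replicates it cannot be said which neighbours in these orders differ. In bulk RNA, a smaller share of cells that express these genes cannot be told apart from less RNA per cell.

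**Figure D1:**
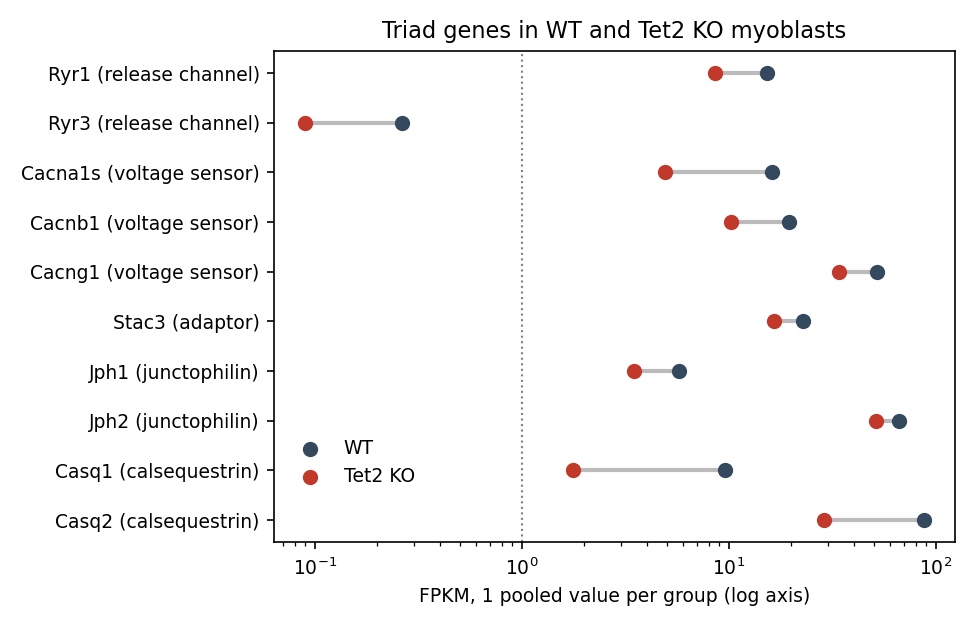
FPKM of each triad gene in WT (dark points) and Tet2 KO (red points), 1 value per group without error bars, on a log axis; the dotted line marks 1 FPKM. Every red point lies left of its dark point, with the widest gap for Casq1 (9.59 FPKM in WT and 1.76 in Tet2 KO) and the narrowest for Jph2 (66.3 and 51.5).

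The release channels were examined first. Ryr1 encodes the ryanodine receptor of skeletal muscle, the channel through which the store empties, and lies at chr7:29788359-29910170 on the minus strand of mm9. Its longest annotated transcript has 106 exons and 15362 bases. Ryr1 had 15.3 FPKM in WT and 8.53 FPKM in Tet2 KO, a log2 ratio of -0.77. Tet2 KO thus held 55.8% of the WT level, and the gene ranked 230 of 11692 by the size of the fall. With about 13000 and 7300 fragments behind these values, the counting error was 0.021 on the log2 scale. This error and those below belong to the ratio without a pseudocount and leave out the spread between animals.

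Ryr3, which encodes a ryanodine receptor found in young and in diaphragm muscle and in brain, lies at chr2:112471539-113057240 on the minus strand. It had 0.265 FPKM in WT and 0.0898 FPKM in Tet2 KO, both below 1 FPKM, and did not pass the filter on low values. Its transcript of 15410 bases is so long that these low values still rested on about 230 and 77 fragments. Without a pseudocount its log2 ratio was -1.56 with a counting error of 0.19, while the pseudocount of 1 reduced it to -0.22. In the GENCODE annotation the neighbouring gene Aven, on the opposite strand, runs into Ryr3 and shares 916 of its 17703 exon bases, whereas the Aven locus of the deposited table ends just short of it. The kit does not keep the strand and Aven was abundant, with 23.3 FPKM in WT and 24.1 in Tet2 KO, so the Ryr3 value is uncertain. Ryr2, the receptor of heart muscle, was near 0 in both groups, with 0.00727 FPKM in WT and 0.00963 in Tet2 KO. Ryr1 therefore made up 98.3% of the summed ryanodine receptor FPKM in WT and 98.8% in Tet2 KO.

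The voltage sensor is a calcium channel of several subunits. Cacna1s encodes its pore-forming subunit Cav1.1, which senses the membrane potential, and lies at chr1:137949478-138016399 on the plus strand, with 44 exons in its longest annotated transcript. Cacna1s had 16.2 FPKM in WT and 4.89 FPKM in Tet2 KO, a log2 ratio of -1.54. It ranked 29 of 11692 by the size of the fall. About 5600 and 1700 fragments gave the ratio without a pseudocount a counting error of 0.040. Cacnb1, the cytoplasmic beta subunit that carries the channel to the membrane, lies at chr11:97862822-97883941. It had 19.6 FPKM in WT and 10.2 FPKM in Tet2 KO, a log2 ratio of -0.88. Cacng1, the gamma subunit of the skeletal muscle channel, lies at chr11:107564532-107577790. It had 51.8 FPKM in WT and 34.2 FPKM in Tet2 KO, a log2 ratio of -0.59.

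These subunits meet in 1 complex, but their transcripts did not fall by the same factor. Cacna1s kept 30.2% of its WT level, Cacnb1 52.0% and Cacng1 66.0%. The FPKM of Cacng1 was 3.20 times that of Cacna1s in WT and 6.99 times in Tet2 KO. For Cacnb1 the same quotient was 1.21 in WT and 2.08 in Tet2 KO. Stac3, which encodes the adaptor that binds Cav1.1 and is needed for its coupling to the ryanodine receptor, lies at chr10:126938773-126945871. It had 22.7 FPKM in WT and 16.5 FPKM in Tet2 KO, a log2 ratio of -0.43, and kept 72.9% of its WT level. Ryr1, the partner across the junction, was at 0.946 times the FPKM of Cacna1s in WT and at 1.74 times in Tet2 KO.

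Promoter sequences are given for the 3 genes past 2-fold and for Jph2, which moved least, because the study deals with MyoD binding beside CpG sites. The study measured such binding at an enhancer upstream of Myog and also read MyoD-bound E-boxes across the genome. The windows read here are promoters, a different kind of element from that enhancer. The RefSeq table held 8 promoters of 6 of the 10 genes, each with 250 bases before and 50 after an annotated start site, and all 8 were found by exact match in mm9. Capitals mark the E-box CANNTG, the site read by MyoD and myogenin, which was searched on both strands and reads the same on each. Positions count from the start site, with -1 for the base before it, and give the first base of a motif. CANNTG occurred in 72.3% of all 32851 promoters of this length and at least 2 times in 39.6% of them. CAGCTG, 1 of the sequences that CANNTG covers, occurred in 16.3%. In the 11633 promoters of genes past the filter on low values these shares were 63.2%, 28.1% and 15.2%. The Cacna1s promoter, at chr1:137949138-137949437 on the plus strand, is the following.
Cacna1s: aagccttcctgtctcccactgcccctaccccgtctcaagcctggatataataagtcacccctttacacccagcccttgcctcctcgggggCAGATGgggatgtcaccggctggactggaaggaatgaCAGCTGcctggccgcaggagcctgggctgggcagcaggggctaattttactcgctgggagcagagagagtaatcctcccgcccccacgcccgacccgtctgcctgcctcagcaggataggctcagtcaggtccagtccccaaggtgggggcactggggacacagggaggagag

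The Cacna1s promoter held CAGATG at position -160 and CAGCTG at position -123. Both had a CpG within 10 bases, as 37.8% of the E-boxes in all promoters did and 60.8% of those in promoters of genes past the filter on low values. Cacnb1 had a promoter with 34 CpG sites and no E-box, and another, downstream, with 3 CpG sites and CACATG at position -27. The Ryr1 promoter had 9 CpG sites and no E-box. A match of letters is a description of the sequence, and no methylation or binding at these promoters was measured in this table.

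**Figure D2:**
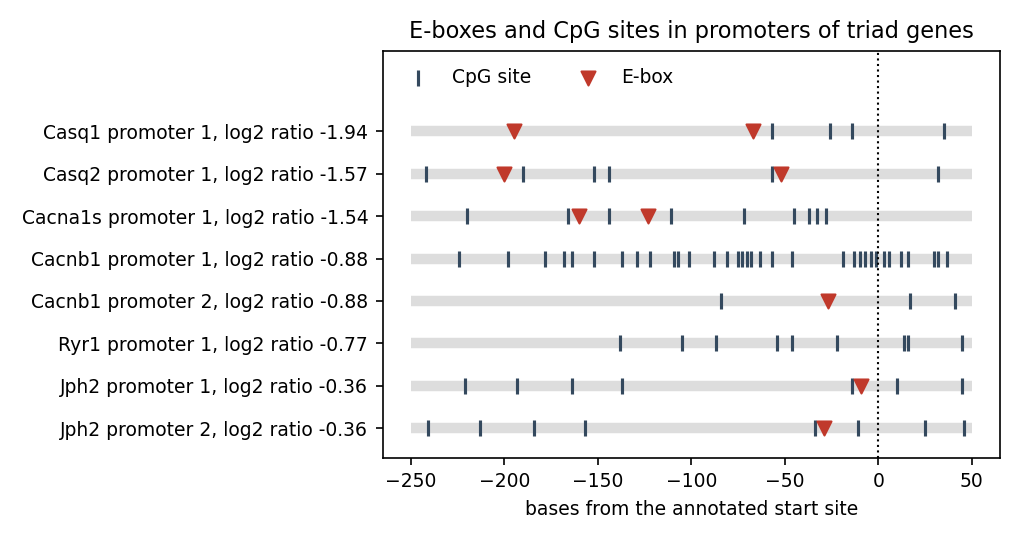
E-boxes (red triangles) and CpG sites (dark ticks) in the 8 RefSeq promoters of 6 triad genes, by distance in bases from the annotated start site (dotted line), ordered by the log2 ratio of the gene. Casq1, Casq2 and Cacna1s, the genes past 2-fold, each have 2 E-boxes. At least 2 occur in 39.6% of all promoters and in 28.1% of those of genes that averaged 1 FPKM or more. The first Cacnb1 promoter has 34 CpG sites and no E-box.

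The junctophilins followed. Jph2 lies at chr2:163161978-163223729 on the minus strand and encodes the junctophilin shared by skeletal and heart muscle. It had 66.3 FPKM in WT and 51.5 FPKM in Tet2 KO, a log2 ratio of -0.36, the smallest fall among the 9 genes. This value rested on about 15000 and 12000 fragments, and its rank by the size of the fall was 710 of 11692. Jph1, the junctophilin of skeletal muscle, lies at chr1:16985021-17087970. It was low, with 5.75 FPKM in WT and 3.46 FPKM in Tet2 KO, a log2 ratio of -0.60. Without a pseudocount the log2 ratio was -0.73, with a counting error of 0.093. Jph2 was thus the main junctophilin transcript of these cells, with 91.6% of the summed junctophilin FPKM in WT and 93.1% in Tet2 KO. Jph3 and Jph4, the forms of the nervous system, stayed below 0.3 FPKM in both groups. The Jph2 promoter, at chr2:163223680-163223979 on the minus strand, held 1 E-box, CAGCTG, at position -9, with a CpG within 10 bases. A second annotated start lies close by, and its window overlaps this one.
Jph2: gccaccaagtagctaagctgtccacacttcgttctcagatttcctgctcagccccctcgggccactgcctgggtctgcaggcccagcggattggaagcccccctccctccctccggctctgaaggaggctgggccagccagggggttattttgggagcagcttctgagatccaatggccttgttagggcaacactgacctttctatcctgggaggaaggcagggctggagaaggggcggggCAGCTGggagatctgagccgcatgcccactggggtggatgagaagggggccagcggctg

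Casq1 had the lowest log2 ratio of the 9 genes, and Casq2 and Cacna1s followed close together. Casq1 encodes the calcium-binding protein of the store in fast fibres and lies at chr1:174140025-174150026 on the minus strand. It had 9.59 FPKM in WT and 1.76 FPKM in Tet2 KO, a log2 ratio of -1.94, and kept 18.4% of its WT level. Only 10 of the 11692 genes had a lower log2 ratio. The Tet2 KO value rested on about 170 fragments and the WT value on about 910. Without a pseudocount the log2 ratio was -2.45, with a counting error of 0.12. Casq2, the form of heart and slow fibres that is also present in immature skeletal muscle, lies at chr3:101890378-101950435 on the plus strand. It was the most abundant triad gene in WT, with 87.4 FPKM, and had 28.7 FPKM in Tet2 KO, a log2 ratio of -1.57 and rank 27 of 11692. In FPKM without a pseudocount Cacna1s fell further than Casq2, by 3.31-fold against 3.05-fold, and it also did so with a pseudocount of 0.1 and in TPM.

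Casq2 exceeded Casq1 in both groups, by 9.12 times in WT and by 16.3 times in Tet2 KO. Its share of the summed calsequestrin FPKM was 90.1% in WT and 94.2% in Tet2 KO. Set against the channel they supply, the FPKM of Casq2 was 5.71 times that of Ryr1 in WT and 3.36 times in Tet2 KO. Exon bases shared with an annotated antisense transcript made up 7.89% of Casq1, 1.95% of Ryr1 and 1.77% of Cacnb1. The other triad genes apart from Ryr3 shared none. Apart from that stretch of Ryr3 and Aven, no protein-coding transcript of another gene matched a member at 95% identity or more.

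The Casq1 promoter lies at chr1:174149977-174150276 on the minus strand and the Casq2 promoter at chr3:101890088-101890387 on the plus strand. They are shown because both genes were past 2-fold, and capitals again mark CANNTG.
Casq1: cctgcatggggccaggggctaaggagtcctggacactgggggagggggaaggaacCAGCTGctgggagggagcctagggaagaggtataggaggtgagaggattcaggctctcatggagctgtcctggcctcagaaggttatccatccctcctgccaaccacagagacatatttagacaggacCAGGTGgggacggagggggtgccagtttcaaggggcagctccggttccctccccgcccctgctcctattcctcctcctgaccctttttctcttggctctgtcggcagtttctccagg
Casq2: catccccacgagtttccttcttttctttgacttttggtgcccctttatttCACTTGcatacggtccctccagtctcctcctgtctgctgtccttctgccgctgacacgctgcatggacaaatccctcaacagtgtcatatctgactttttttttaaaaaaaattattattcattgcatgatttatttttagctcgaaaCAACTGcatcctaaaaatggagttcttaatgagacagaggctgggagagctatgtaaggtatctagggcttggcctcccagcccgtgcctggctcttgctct

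The Casq1 promoter held CAGCTG at position -195 and CAGGTG at position -67, of which 1 had a CpG within 10 bases, and 4 CpG sites in all. The letters CAGGTG or CACCTG, which are each other's complement, were found in 20.2% of all promoters and in 16.7% of those of genes past the filter. The Casq2 promoter held CACTTG at position -200 and CAACTG at position -52, each with a CpG within 10 bases. It also held a MEF2 motif, searched on both strands, at position -69 without overlap with the E-boxes. Such a motif was found in 3.19% of all promoters and in 1.69% of those of genes past the filter, and the other 7 promoters held none. CAGCTG was thus present in the promoters of Casq1, Cacna1s and Jph2. Promoters were at hand for 6 of the 10 genes, and a relation of any motif to the size of the fall was not tested.

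**Figure D3:**
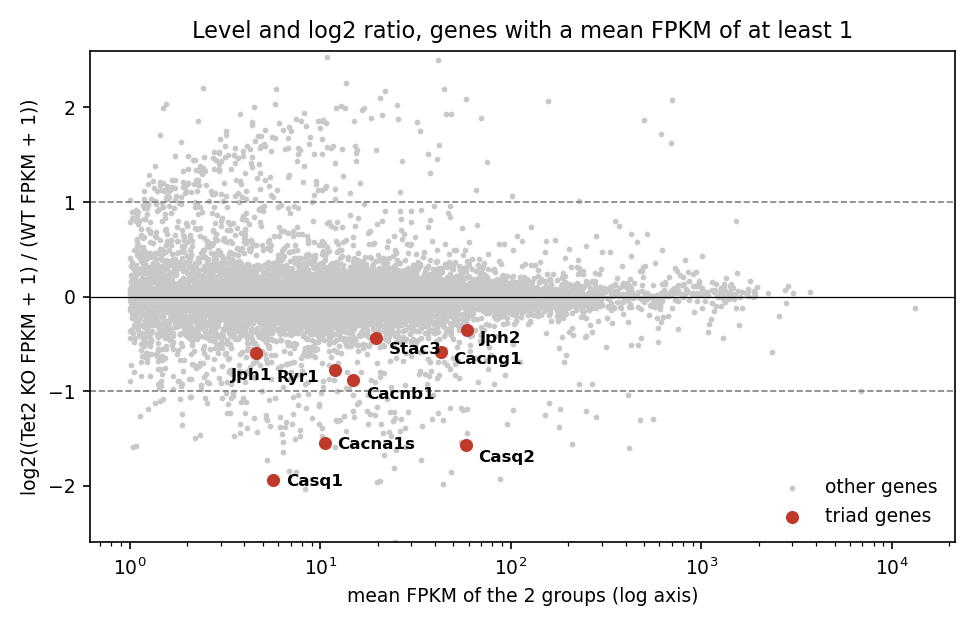
Log2 ratio of Tet2 KO over WT against the mean FPKM of the 2 groups (log axis) for all genes that averaged 1 FPKM or more, with the 9 triad genes that passed this filter in red; dashed lines mark 2-fold, and 13 genes lie beyond the vertical range of 2.6. Casq1, Casq2 and Cacna1s lie below the lower dashed line, and the other 6 lie between it and 0.

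A fold of 1.5 in place of 2 was passed by 7 of the 9 genes, all but Stac3 and Jph2, and by 2.89% of all genes in that direction. Cacng1 and Jph1 lay just inside this limit, with log2 ratios of -0.59 and -0.60, and Stac3 lay outside it at -0.43. Among all genes the log2 ratio varied little with transcript length. Genes with annotated transcripts of at least 8000 bases, as Ryr1 has, had a median log2 ratio of -0.01 over 453 genes, and those under 2000 bases one of 0.0069 over 2665 genes.

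Other isoforms of the same families differed among themselves. Cacnb3, a beta subunit of other tissues, had 7.16 FPKM in WT and 7.16 FPKM in Tet2 KO. Because Cacnb1 was lower, its share of the summed beta subunit FPKM was 70.3% in WT and 56.1% in Tet2 KO. Stac2, a relative of Stac3, had 6.68 FPKM in WT and 6.96 FPKM in Tet2 KO, so the share of Stac3 was 77.1% in WT and 70.3% in Tet2 KO. Cacng6, another gamma subunit of skeletal muscle, had 4.93 FPKM in WT and 1.83 FPKM in Tet2 KO, a log2 ratio of -1.07. Of the 20 paralogs examined, these 3 alone averaged 1 FPKM or more. Cacng6 alone was past 2-fold, which 1.21% of all genes were in that direction.

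**Figure D4:**
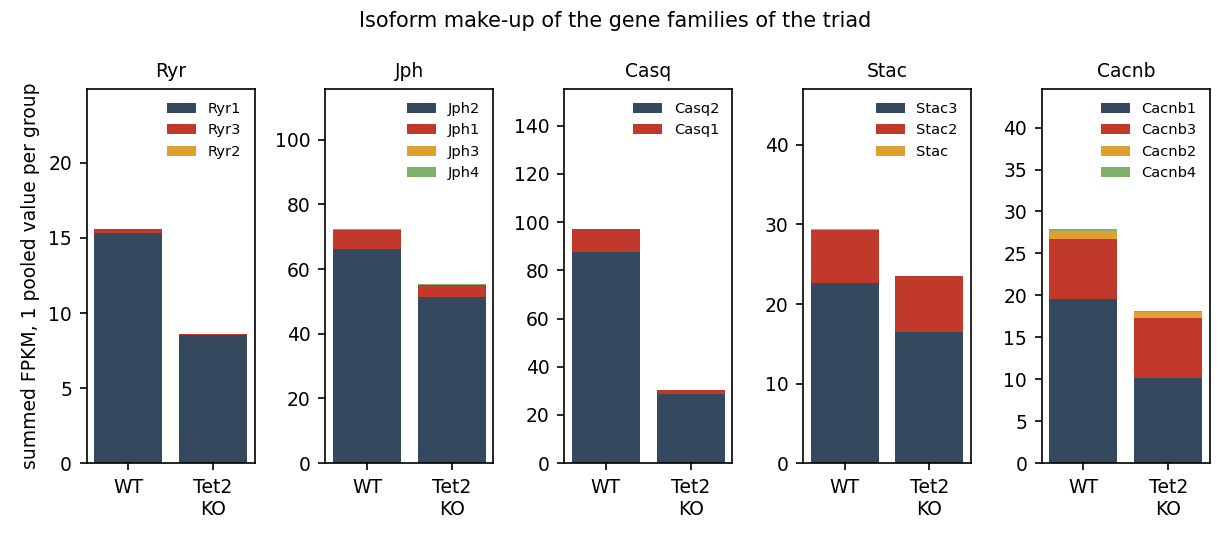
Summed FPKM of 5 gene families in WT and Tet2 KO, 1 value per group without error bars, each bar divided by isoform. The dark blocks (Ryr1, Jph2, Casq2, Stac3 and Cacnb1) are lower in Tet2 KO in every panel, while the red blocks of Stac2 and Cacnb3 keep their height.

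Other genes of the triad were described from a list chosen with earlier results of these data known. Of 21 genes 20 passed the filter on low values. In Tet2 KO 17 of these were lower and 3 higher, and their median log2 ratio was -0.41. At least 2-fold lower were 7 genes, against 1.21% of all genes, and none was 2-fold higher. The lowest were Hrc, Cav3 and Srl. Hrc encodes a calcium-binding protein of the store and had 15.5 FPKM in WT and 4.96 in Tet2 KO. Cav3, caveolin of muscle, had 86.3 FPKM in WT and 31.0 in Tet2 KO, and Srl, sarcalumenin, had 63.1 and 24.8 FPKM. Trdn, whose product triadin anchors calsequestrin to the ryanodine receptor, had 3.16 FPKM in WT and 0.990 in Tet2 KO, a log2 ratio of -1.06. Jsrp1, a partner of the voltage sensor, had 46.5 FPKM in WT and 28.5 in Tet2 KO, a log2 ratio of -0.69. Cacna2d1, the alpha2-delta subunit of the same channel, had 17.7 and 14.6 FPKM, a log2 ratio of -0.26. Among the genes that were higher, Fkbp1a and Homer1 encode proteins of wide expression and had log2 ratios of 0.19 and 0.06. Dysf, also past 2-fold at 7.67 FPKM in WT and 2.65 in Tet2 KO, is another gene with RT-qPCR primers in the study.

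Calcium pumps with their inhibitors, store entry channels, the inositol trisphosphate receptors and the buffer Calr were set beside them. Of 16 genes 14 passed the filter, 10 lower and 4 higher, with a median log2 ratio of -0.10. Against 1.21% of all genes, 2 were lower by at least 2-fold. These were Atp2a1, the calcium pump of fast fibres, with 35.5 FPKM in WT and 14.0 in Tet2 KO, and its inhibitor Sln, sarcolipin, with 32.9 and 13.6 FPKM. Atp2a2, the pump of slow fibres and of non-muscle cells, had 152.8 FPKM in WT and 141.6 in Tet2 KO, a log2 ratio of -0.11. None of the 14 was higher by 2-fold.

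The make-up of the cultures was read from marker lists, which were chosen with earlier results of these data known. The 8 genes of differentiating muscle were all lower, with a median log2 ratio of -1.11. Their summed FPKM was 1977.3 in WT and 789.1 in Tet2 KO, so such transcripts were abundant in both groups. By at least 2-fold 5 of them were lower, against 1.21% of all genes. Myog, which encodes myogenin, had 553.6 FPKM in WT and 268.1 in Tet2 KO. The 7 genes of myoblast fate had a median of -0.10, and none was past 2-fold. Tet2 itself had 6.64 FPKM in WT and 5.79 in Tet2 KO, a gene-level value that also covers the exons that were not deleted and therefore does not check the group labels. Leukocyte markers moved the other way, although CD45+ and CD11b+ cells had been removed in the sort. All 11 were higher in Tet2 KO, 9 of them by at least 2-fold, against 2.08% of all genes. Their summed FPKM was 119.3 in WT and 471.2 in Tet2 KO. None was at 0 in either group, and Ptprc, the gene of CD45, had 1.36 FPKM in WT and 5.67 in Tet2 KO. All 7 fibroblast markers that passed the filter were higher, none by 2-fold at the pseudocount of 1. The largest rises were in Dcn, from 3.15 FPKM in WT to 7.04 in Tet2 KO, and Col1a2, from 8.71 to 15.8. Without a pseudocount Dcn was past 2-fold. The sum of the 8 listed was 447.0 FPKM in WT and 489.1 in Tet2 KO. Most of this sum was Ly6a (278.0 and 287.8) and Col3a1 (151.6 and 170.8), which moved little. The part of these markers in the fall of the triad genes was not tested.

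**Figure D5:**
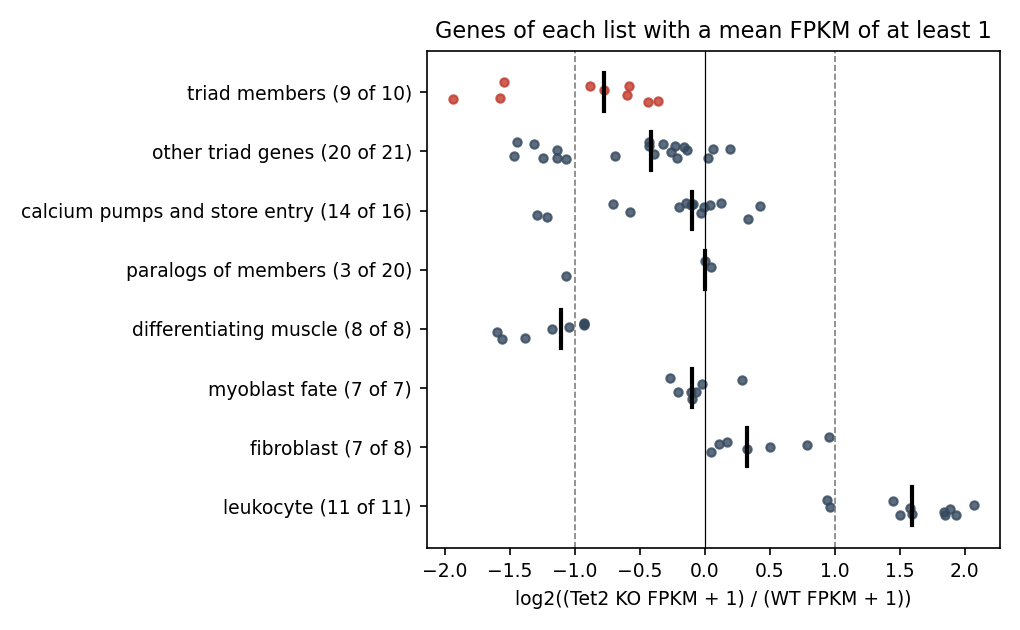
Log2 ratio of Tet2 KO over WT for each gene of 8 lists, with the number of genes that averaged 1 FPKM or more out of those listed; each point is a gene, black bars are medians, and dashed lines mark 2-fold. The triad genes (red) lie left of 0 throughout, with a median of -0.77, between the medians of the other triad genes (-0.41) and of differentiating muscle (-1.11), while the leukocyte markers lie right of 0.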

How the data were processed

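RNA of WT and Tet2 KO myoblasts had been sequenced from 2 libraries per group, made with the TruSeq RNA kit. The FPKM values were deposited by the authors, who trimmed the reads, mapped read pairs to mm9 with TopHat2 2.0.13 and estimated expression with Cuffdiff 2.2.1; the gene annotation was not given in the sources used here. How the libraries of a group were combined into its value is not stated. The table further held log2 fold changes, test statistics, p-values, q-values and a test status from the authors' own comparison, which were not used here.

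The log2 ratio used a pseudocount of 1, and genes needed a mean FPKM of at least 1. With no value per library, a gene was counted as past 2-fold in place of a test. The genes and lists were chosen with earlier results of these data known. All members and Tet2 and Myog were named; of each list those past 2-fold or, if more than 6, the 3 lowest and 3 highest, and genes that the background needed. The values of 1 gene that this rule names are not reported here. Coordinates are in mm9, with 1 added to the deposited starts. Exons came from GENCODE vM1 of the same build, promoters from RefSeq (GRCm38.p6), placed in mm9 by exact match. Fragment numbers were estimated from the steps of the lowest values of genes with 1 annotated transcript, after the data were seen. Of such values, 81.5% of 1044 in Tet2 KO and 81.3% of 1302 in WT lay within 0.1 of a whole step, up to 3 steps. Step and fragment length were fitted to the lowest of these same values, so these shares are no independent check. The tolerance also does not separate the 2 levels seen in WT. The fragment numbers cover counting error only. The scripts were tested on simulated data. Alternatives were another pseudocount, filter, scaling and fold, removal of single members and of a length trend. Endothelial, cardiac and smooth muscle markers were also read. Python 3.11.15, numpy 2.4.6, pandas 2.3.3, statsmodels 0.14.6, matplotlib 3.10.9 and BLAST+ 2.17.0 were used.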

Additional observations from a re-analysis of the deposited data

How the results depend on the processing

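No paired analysis was possible because a gene has only 1 value in each group, and for the same reason no library could be left out in turn. The median log2 ratio of the triad genes stayed negative under every alternative run, from -0.89 to -0.69, against -0.77. Leaving out each gene in turn gave medians from -0.83 to -0.69 and 2 or 3 genes past 2-fold. The count of 3 genes past 2-fold held under pseudocounts of 0.1 and 0, no filter, a filter at 5 FPKM, TPM, median centring and removal of the length trend. It became 7 when 1.5-fold was enough, by construction. It became 4, with Ryr3 at -1.56, without pseudocount and filter together, an alternative added after the data were seen. The share of all genes past 2-fold was taken only at a pseudocount of 1 with the filter. The count of 4 can therefore not be set against it. None of the 72 values of single genes under the alternatives changed sign, but a pseudocount cannot turn a ratio. TPM and centring moved the median of all genes by under 0.01. The sizes did depend on the pseudocount. In Casq1, Cacna1s and Ryr1 the shift went beyond the 95% range of the counting error. Casq1 moved from -1.94 to -2.38 at a pseudocount of 0.1 and to -2.45 without one. Cacna1s moved from -1.54 to -1.71 and -1.73, and Ryr1 from -0.77 to -0.84 in both. Jph1, Cacnb1 and Casq2 moved by more than the counting error itself but stayed inside that range. Without a pseudocount Jph1 went from -0.60 to -0.73, Cacnb1 from -0.88 to -0.94 and Casq2 from -1.57 to -1.61. The isoform shares of Ryr1, Jph2 and Casq2 were the same under TPM by construction. The spread between libraries is not visible in pooled values, which limits Jph2, Stac3 and Cacng1, with the smallest falls, most.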

Other observations

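The genes named here were chosen after their values were seen. Of the channels outside the triad, Itpr1, the inositol trisphosphate receptor of the calcium store, had 9.88 FPKM in WT and 12.7 in Tet2 KO, and Atp2a3, a calcium pump of non-muscle cells, had 2.23 and 3.33 FPKM. Orai1, the store-operated calcium channel, had 19.2 FPKM in WT and 12.5 in Tet2 KO. Cacna1c and Cacna1d, the pore subunits of heart and neurons, stayed at or below 0.282 FPKM in both groups. None of the 5 cardiac markers reached a mean FPKM of 1, and Myl7 was listed at 0 in both groups. Of the 6 endothelial markers Pecam1 alone did, with 1.63 FPKM in WT and 1.48 in Tet2 KO. Of the 3 smooth muscle markers Smtn alone did, with 13.1 FPKM in WT and 9.02 in Tet2 KO.

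The FPKM values of genes at about 1 fragment, multiplied by transcript length less fragment length in kilobases, differed in pattern between groups. In Tet2 KO, 53.3% of 555 such values lay between 0.0175 and 0.01775 FPKM times kilobases, and 32.8% in the adjoining interval up to 0.018. In WT they lay around separate levels, with 25.3% of 689 values between 0.01725 and 0.0175 and 19.0% between 0.01625 and 0.0165. How the libraries of each group were combined is not stated, and the cause of this difference was not tested.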
